A study of Mus musculus with 8 samples.

Results

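The 10 genes described here encode the 3 enzymes that make serine from a glycolytic intermediate and 7 enzymes of folate-dependent one-carbon metabolism, 4 of them mitochondrial and 3 cytosolic. They were picked by name out of the 50599 gene records of each library, and all 10 were found by their GENCODE symbol. The choice was made with their difference between knockout and wildtype known, so that difference is given as a description. Calls from the fit over all genes are counted for these 10 genes in the same sense, with no p-value printed and nothing drawn from them. RNA was sequenced from whole hearts of 8 male C57BL/6N mice aged 12 weeks, with 1 library from each animal. The 4 libraries labelled Lrpprc knockout came from animals that the study describes as Lrpprc loxP/loxP, Cre+, in which the gene is removed from heart and skeletal muscle and remains in other organs. The promoter that drives Cre is not given in the sources used here. The 4 libraries labelled wildtype came from controls that carry the same floxed Lrpprc alleles without Cre. Lrpprc encodes a protein that binds and stabilises mitochondrial mRNAs.

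Serine is made in the cytosol in a short branch of glycolysis: Phgdh oxidises 3-phosphoglycerate, Psat1 adds an amino group taken from glutamate, and Psph removes the phosphate. Serine hydroxymethyltransferases then move a carbon from serine to tetrahydrofolate and release glycine, and the other folate enzymes oxidise that carbon to formyl-tetrahydrofolate, formate or carbon dioxide. The mitochondrial and the cytosolic folate pathways run in parallel with separate enzymes, and the mitochondrial side exports formate that the cytosol uses for purines, thymidylate and methionine. Transcription of several of these genes is known to respond to the integrated stress response factor Atf4, and a rise of Mthfd2 is a known feature of muscle with defective mitochondrial gene expression.

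Depth was between 35218541 and 47743376 expected counts per library. Lrpprc itself had 3424 to 3946 normalised counts in the wildtype and 504 to 605 in the knockout (log2 fold change -2.67). Mitochondrial rRNA took 44.0% to 46.9% of the counts in the wildtype and 65.6% to 67.8% in the knockout. Levels between groups are given as counts scaled by median-of-ratios factors and corrected for effective length, called normalised counts below. The summed count of 8 cardiomyocyte markers was 1062886 to 1172900 in the wildtype and 559057 to 712308 in the knockout, with 6 of the 8 lower and 1 higher. Of the markers of other cells, 5 of 6 for macrophages and 3 of 6 for fibroblasts were higher. The macrophage sum was 2656 to 3460 in the wildtype and 3054 to 7139 in the knockout, with overlap, and the fibroblast sum was 15853 to 16788 in the wildtype and 16821 to 56082 in the knockout. The summed atrial markers were 22320 to 24909 in the wildtype and 35603 to 54641 in the knockout, with 1 of 5 higher and 2 lower, and those of smooth muscle and pericytes were 17135 to 18625 and 12356 to 15853, with 2 of 5 lower. The glial sum was 132 to 166 in the wildtype and 69.4 to 113 in the knockout, with no overlap and 1 of 5 lower, and Gfap was at or under 3 counts in every library. The adipocyte sum was 33.5 to 103 and 5.32 to 94.2, with overlap. Summed proliferation markers were 230 to 560 in the wildtype and 121 to 1535 in the knockout, with 2 of 7 higher. The endothelial sum (15617 to 17044 and 11860 to 19212) and the erythroid sum (20882 to 27049 and 15231 to 53861) overlapped between the groups. The hepatocyte markers, listed because the liver is rich in folate enzymes, summed to at most 15.0 counts in any library, and Apoa1 and Cps1 were at or under 3 counts in all of them. The part of these cell types in the results below was not tested, and in whole hearts fewer cells of a type and less RNA per cell cannot be told apart.

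Knockout replicate 3 stood apart from the other 3 knockout libraries. It had the lowest summed level of its group for 8 of the 11 marker sets and the highest for 2, those of cardiomyocytes and erythroid cells, and the chi-square per degree of freedom over genes was 36.3 to 52.9 in its pairs against 14.7 to 31.4 in the other knockout pairs. Without it, 9 of the 10 genes were called higher and 0 lower, as with it.

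Of the 10 genes, 9 were higher in the knockout, 0 were lower and 1, Aldh1l1, was not called at an adjusted p under 0.05 (DESeq2). Of all 19959 genes tested, 18.2% were higher by the same rule and 15.5% lower (33.7% in either direction), and the median log2 fold change was 0.01. Of the 10 genes, 8 were called and at least 2-fold higher, a class that held 6.86% of all genes tested. In 9 of the 10, every knockout library lay above every wildtype library, beside 16.7% of all genes tested with that order and 16.4% with the reverse. Since the genes were chosen on this contrast, these shares are given side by side only. By role, all 3 serine synthesis enzymes, all 4 mitochondrial folate enzymes and 2 of the 3 cytosolic folate enzymes were higher. The median log2 fold change was 4.82 in the serine synthesis group, 3.28 in the mitochondrial group and 0.39 in the cytosolic group.

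The upstream sequences of the genes that stood farthest apart are shown here, because these genes lie on separate chromosomes and stood apart in the same libraries, with that of Aldh1l1, the gene that was not called. They are the 250 bases before the RefSeq transcript start on GRCm38.p6, read 5′ to 3′ on the strand of the gene. The windows are those of Phgdh (chr3:98339970-98340219, minus strand), Psat1 (chr19:15925060-15925309, minus strand), Mthfd2 (chr6:83317605-83317854, minus strand) and Aldh1l1 (chr6:90550543-90550792, plus strand). GENCODE places the last 21 bases of the Phgdh window, 4 of that of Aldh1l1 and 2 of that of Mthfd2 in an exon. The GENCODE records of Psat1, Mthfd2 and Aldh1l1 begin farther upstream, so the rest of these windows is intronic in longer transcripts, and which start the heart uses was not tested. Capitals mark the CCAAT box on either strand (written ATTGG where it lies on the other strand) and the TGGTGCAAT match in Psat1.
Phgdh: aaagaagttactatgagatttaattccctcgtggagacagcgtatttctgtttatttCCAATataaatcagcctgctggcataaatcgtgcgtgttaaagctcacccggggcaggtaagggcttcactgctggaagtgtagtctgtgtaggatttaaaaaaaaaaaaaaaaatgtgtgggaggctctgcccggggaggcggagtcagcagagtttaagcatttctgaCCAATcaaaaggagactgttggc
Psat1: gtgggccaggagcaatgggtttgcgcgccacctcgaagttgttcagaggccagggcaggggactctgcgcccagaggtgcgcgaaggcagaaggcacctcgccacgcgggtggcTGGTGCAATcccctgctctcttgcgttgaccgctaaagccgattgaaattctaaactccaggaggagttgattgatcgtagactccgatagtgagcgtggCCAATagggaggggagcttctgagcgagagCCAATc
Mthfd2: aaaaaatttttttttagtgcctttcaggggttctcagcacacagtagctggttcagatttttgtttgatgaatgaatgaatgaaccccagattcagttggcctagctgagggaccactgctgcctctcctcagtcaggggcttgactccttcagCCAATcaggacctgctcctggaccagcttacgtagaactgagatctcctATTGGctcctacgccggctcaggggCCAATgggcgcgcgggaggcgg
Aldh1l1: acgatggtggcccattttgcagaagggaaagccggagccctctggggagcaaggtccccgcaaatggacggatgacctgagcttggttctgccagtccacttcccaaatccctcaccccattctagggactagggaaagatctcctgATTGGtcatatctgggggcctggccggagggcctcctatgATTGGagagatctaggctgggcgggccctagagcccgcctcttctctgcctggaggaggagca

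Of the 10 genes, 9 had a RefSeq window, with 10 windows in all since Psat1 has a pair of starts. The motifs were chosen with these windows in view and were searched on both strands. The CCAAT box was in a window of 7 of the 9 genes (Phgdh, Psat1, Psph, Mthfd2, Shmt1, Mthfd1 and Aldh1l1) and in 33.9% of all 32841 windows. Mthfd2 held 3 copies, and Phgdh, Psat1 and Psph held 2 each. One copy lay 23 to 19 bases before the start of Phgdh and another 22 to 18 bases before the start of Mthfd2. Aldh1l1, whose level was not called higher, also held 2 copies. Of the Psph window, 196 bases lie in an exon of Psph itself and all 250 in an exon of Cct6a on the opposite strand. All 250 bases of the Mthfd1 window lie in an exon of Gm47525, also on the opposite strand. The composite C/EBP-ATF element TGATGCAAT, with up to 1 mismatch, was matched only in the first Psat1 window, as TGGTGCAAT with the substitution A3G counted from the 5′ end of the element, 136 to 128 bases before the start. It was matched in 3.77% of all windows. Its core TGATGNAA, which overlaps that element, was in 0 of the 10 windows and in 3.45% of all, and the E-box CACGTG was in 0 and in 6.02%. A match of letters is not a site of binding, and the search did not reach into introns, where such elements also occur.

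Phgdh, the first and committing enzyme of the branch, showed the largest change of the 10 genes. Phgdh (ENSMUSG00000053398.11, chromosome 3 from 98313170 to 98339990, minus strand, GRCm38) had normalised counts of 20.96, 13.9, 22.4 and 30.7 in wildtype replicates 1 to 4 and of 1354, 1209, 1300.1 and 1179 in knockout replicates 1 to 4. Every knockout library stood far above every wildtype library, and the knockout libraries were close to each other. The knockout over wildtype difference on the log2 scale was 5.86 ± 0.196 (SE), a 57.9-fold difference, which ranked 7 among the 10441 genes averaging 100 or more normalised counts. The wildtype values rest on only 16 to 31 counts per library, so the size of the fold is less certain than its direction. Phgdh, like Mthfd2 and Mthfd1l below, reached a mean of 100 only through its knockout values. Its rank and theirs restate the contrast by which the genes were chosen. Pseudogene copies of Phgdh could share its reads, which was not tested. The copy with the most counts, Phgdh-ps1, had 17 counts summed over the 4 wildtype libraries and 10 over the 4 knockout libraries, and the counts do not show how many reads of a copy were assigned to Phgdh.

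Psat1, the transaminase of the second step, was higher in all 4 knockout libraries but unevenly. For Psat1 (ENSMUSG00000024640.9, chromosome 19 from 15904678 to 15947337, minus strand), the wildtype libraries had 40.2, 36.9, 45.5 and 36.9 normalised counts and the knockout libraries 726, 727, 2096 and 939. Knockout replicate 3 was high above the other 3 knockout libraries, which did not overlap with the wildtype either. On the log2 scale the difference was 4.82 ± 0.331 (SE), and 4.33 without knockout replicate 3. The same library did not stand above the others in Phgdh or Psph. Whether what set this library apart in its marker counts had a part in the Psat1 value was not tested.

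Psph, the phosphatase that completes serine, changed least in this branch. Psph (ENSMUSG00000029446.14, chromosome 5 from 129765558 to 129787449, minus strand) had 77.7, 61.9, 50.3 and 52.3 normalised counts in the wildtype and 183, 163, 167 and 180.3 in the knockout. The groups did not overlap, and the lowest knockout value was 2.10 times the highest wildtype value. Its log2 fold change came to 1.54 ± 0.19 (SE). Psph and Cct6a, on opposite strands, share 452 bases at the start of Psph. Reads were counted by strand, Cct6a had a mean of 1742 normalised counts and its log2 fold change was 0.44.

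**Figure D1:**
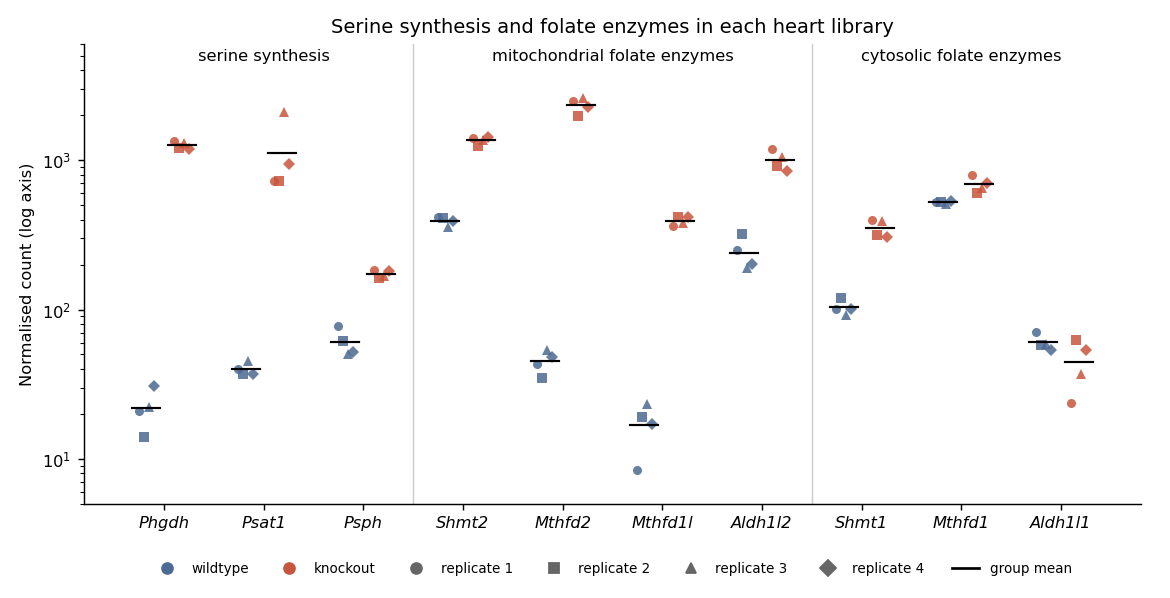
Normalised count (log axis) of the 10 genes in each of the 4 wildtype and 4 knockout libraries, with marker shapes for replicate numbers and a line at the group mean. Only Aldh1l1 has overlapping groups, Psat1 stands out in knockout replicate 3 at 2096, and Mthfd1 separates by the smallest step, with knockout values from 601 against wildtype values up to 535. Of all genes tested, 16.7% had all 4 knockout libraries above all 4 wildtype libraries and 16.4% had them below.

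Per length, Psph was the main transcript of the branch in the wildtype and a minor one in the knockout. TPM (the deposited level per length, which allows genes to be compared within a library) of Psph made up 60.9% ± 7.09 of the summed TPM of the 3 enzymes in the wildtype and 10.5% ± 2.11 in the knockout (SD, n = 4 each). The sum itself was 2.45 ± 0.305 TPM in the wildtype and 38.3 ± 6.51 TPM in the knockout (SD, n = 4). The transcripts of the 3 consecutive steps thus ran from 0.39 to 1.51 TPM in the wildtype and from 3.93 to 20.4 TPM in the knockout, as group means, with Phgdh the lowest in the wildtype and the highest in the knockout.

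Shmt2, the mitochondrial hydroxymethyltransferase that releases glycine from serine, had the highest mean level per length of the 10 transcripts in the wildtype heart, with a range that overlapped that of Mthfd1. Shmt2 (ENSMUSG00000025403.5, chromosome 10 from 127517123 to 127522444, minus strand) had 414, 407, 358 and 393 normalised counts in the wildtype and 1416, 1237, 1364 and 1425 in the knockout. The libraries of each group were tightly grouped and the groups were far apart. This gave a log2 fold change of 1.79 ± 0.101 (SE), the smallest error of the 10 genes.

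Mthfd2, the mitochondrial dehydrogenase and cyclohydrolase of embryonic and dividing cells, was among the lower transcripts per length in the wildtype and the highest of the 10 in the knockout. Mthfd2 (ENSMUSG00000005667.8, chromosome 6 from 83305691 to 83325908, minus strand) had 43.5, 34.6, 53.5 and 48.4 normalised counts in the wildtype and 2495, 1977, 2627 and 2264 in the knockout. No wildtype library came near a knockout library: the lowest knockout value was 36.9 times the highest wildtype value. The knockout over wildtype difference on the log2 scale was 5.68 ± 0.172 (SE), a 51.2-fold difference, next after Phgdh at rank 8. Summed proliferation markers were 230 to 560 counts in the wildtype, 928 to 1535 in knockout replicates 1, 2 and 4 and 121 in knockout replicate 3, where Mthfd2 was highest. Their part in the Mthfd2 value was not tested. The related Mthfd2l, a mitochondrial isozyme found in adult tissues, was not called (wildtype 109 ± 16.2, knockout 98.6 ± 36.9 normalised counts, SD, n = 4 each; DESeq2 adjusted p = 0.743).

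Mthfd1l, the mitochondrial synthetase that releases formate for export, had the lowest level per length of the 10 transcripts in the wildtype. Mthfd1l (ENSMUSG00000040675.17, chromosome 10 from 3973118 to 4167081, plus strand) had 8.40, 19.2, 23.2 and 17.0 normalised counts in the wildtype and 364, 413, 377 and 417 in the knockout. The groups did not overlap, and wildtype replicate 1 was lower than the other 3 of its group. On the log2 scale the difference was 4.51 ± 0.226 (SE), at rank 20, and it rests on 8 to 27 counts per wildtype library.

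Aldh1l2, the mitochondrial formyl-tetrahydrofolate dehydrogenase that sends the carbon to carbon dioxide and yields NADPH, was also higher. Aldh1l2 (ENSMUSG00000020256.14, chromosome 10 from 83487450 to 83534140, minus strand) had 249.5, 318, 189.5 and 203 normalised counts in the wildtype and 1179.5, 915, 1053 and 844 in the knockout. The groups were apart, by a log2 fold change of 2.06 ± 0.186 (SE). The end of the gene overlaps D10Wsu102e on the opposite strand by 1056 bases. That gene had a mean of 9218 normalised counts, more than any of the 10, and a log2 fold change of -0.33. Whether any of its reads were counted for Aldh1l2 was not tested.

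Of the 3 cytosolic enzymes, Shmt1 was several-fold higher, Mthfd1 slightly higher and Aldh1l1 not called. Shmt1, the cytosolic counterpart of Shmt2 (ENSMUSG00000020534.14, chromosome 11 from 60788104 to 60811718, minus strand), had 101, 119, 92.6 and 101 normalised counts in the wildtype and 400.5, 314, 393 and 307 in the knockout. The groups were well apart. Its log2 fold change was 1.78 ± 0.163 (SE), close to the 1.79 of Shmt2.

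Mthfd1, the cytosolic enzyme that combines the synthetase, cyclohydrolase and dehydrogenase activities in 1 protein (ENSMUSG00000021048.7, chromosome 12 from 76255298 to 76319803, plus strand), had 527, 526, 511 and 535 normalised counts in the wildtype and 800.4, 601, 649 and 703 in the knockout. The groups did not overlap, by a narrow margin in knockout replicate 2. Its log2 fold change came to 0.39 ± 0.117 (SE). It was 0.10 and not called under total-count scaling, which moved the median of all genes by -0.30, and 0.82 when totals left out mitochondrial rRNA, which moved that median by 0.43. Relative to the median of all genes it was 0.37 under each of the 3 scalings.

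Aldh1l1, the cytosolic formyl-tetrahydrofolate dehydrogenase (ENSMUSG00000030088.15, chromosome 6 from 90486427 to 90600203, plus strand), had 70.7, 58.3, 59.1 and 53.9 normalised counts in the wildtype and 23.6, 62.9, 37.3 and 53.7 in the knockout. The groups overlapped, with knockout replicates 1 and 3, and narrowly replicate 4, below all wildtype libraries and replicate 2 within their range. This gave a log2 fold change of -0.47 ± 0.308 (SE), and the gene was not called. It was called lower, at -0.76, when effective lengths were not used as an offset. Leaving out 1 library at a time gave -0.65 (without knockout replicate 2) to -0.26 (without knockout replicate 1), with no call. In the knockout libraries the effective length assigned to Aldh1l1 ran from 1438 to 2878 bases, and it was shortest in replicate 2, the library with the highest normalised count.

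**Figure D2:**
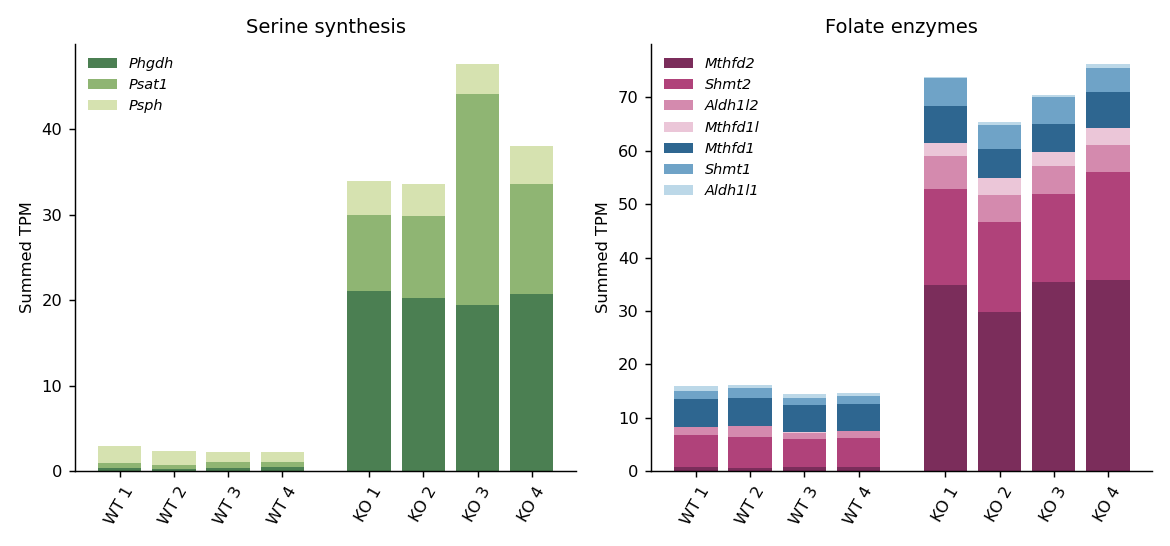
Summed TPM of the 3 serine synthesis enzymes (left) and the 7 folate enzymes (right) in each library, stacked by gene, with WT for wildtype and KO for knockout. The stacks of the knockout libraries are taller, Mthfd2 forms the largest part of the folate stack in each of them, and the cytosolic enzymes in blue change far less than the mitochondrial ones in magenta.

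Summed over compartments, the mitochondrial enzymes went from 7.95 ± 0.572 TPM to 60.1 ± 3.98 TPM and the cytosolic enzymes from 7.35 ± 0.294 TPM to 11.4 ± 0.875 TPM (wildtype and knockout, SD, n = 4). The mitochondrial forms thus held 51.9% ± 0.808 of the summed TPM of the 7 folate enzymes in the wildtype, against 84.1% ± 0.687 in the knockout (SD, n = 4 each), with ranges of 51.0% to 52.8% and 83.3% to 84.9%. Within the mitochondrial group, Mthfd2 went from 9.17% ± 2.17 to 56.5% ± 2.08 (SD, n = 4). Shares and ratios taken within a library do not depend on how libraries were scaled. TPM sums themselves do, and they include the mitochondrial rRNA whose share was higher in the knockout.

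Enzyme by enzyme, the mitochondrial to cytosolic ratio did not overlap between the groups in 3 of the 4 pairs and overlapped for the hydroxymethyltransferases. The TPM ratio of Shmt2 to Shmt1 was 3.31 to 3.97 in the wildtype and 3.37 to 4.498 in the knockout. These ranges overlapped, and the mean log2 ratio differed by 0.02 (1.89 ± 0.112 and 1.91 ± 0.192, SD, n = 4), a value whose sign changed on leaving out wildtype replicate 2 (-0.03) or knockout replicate 4 (-0.06) and that was 0.32 with 1 added to each TPM. Mthfd2 went from 0.108 to 0.172 times the level of Mthfd1 in the wildtype to 5.10 to 6.63 times in the knockout, so that the pair changed order in every library. The mean log2 ratio moved by 5.33, from -2.85 ± 0.278 to 2.48 ± 0.171 (SD, n = 4), and by 4.13 with 1 added to each TPM.

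Mthfd1l stayed below Mthfd1 in every library. Its ratio to Mthfd1 was 0.0134 to 0.0379 in the wildtype and 0.369 to 0.560 in the knockout, a shift of 4.23 on the log2 scale, which was 1.55 with 1 added to each TPM. Aldh1l2 was 1.67 to 2.86 times Aldh1l1 in the wildtype and 7.58 to 26.4 times in the knockout, a shift of 2.62 on the log2 scale, or 1.61 with 1 added to each TPM. The highest of these came from knockout replicate 1, where Aldh1l1 had only 22 counts. None of the 4 differences was tested, since the genes were chosen on the same contrast.

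**Figure D3:**
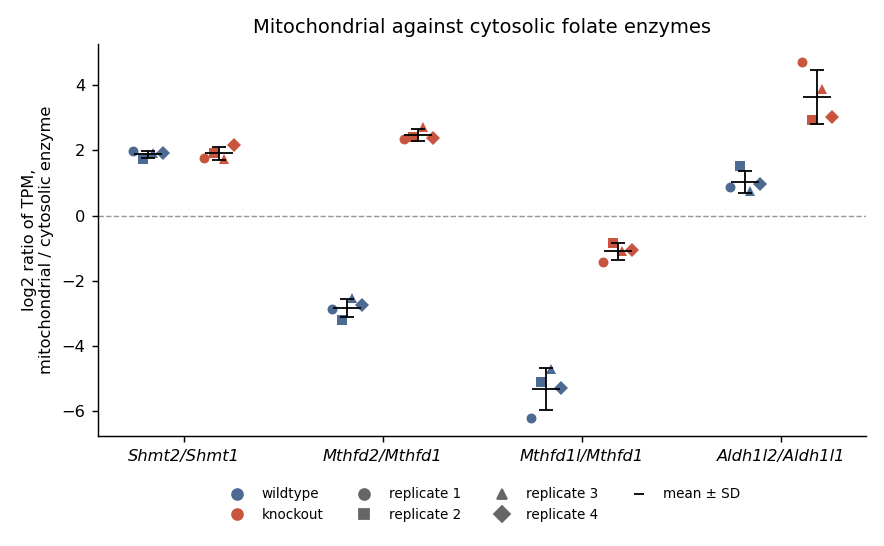
The log2 ratio of the TPM of each mitochondrial enzyme to that of its cytosolic counterpart in the 8 libraries, with mean ± SD of 4 libraries per group and a dashed line at equal levels. Shmt2/Shmt1 overlaps between the groups near 1.9, Mthfd2/Mthfd1 crosses the line from -2.85 to 2.48, Mthfd1l/Mthfd1 stays under it and Aldh1l2/Aldh1l1 stays above it.

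The order of the levels per length was rearranged. In the wildtype, Shmt2 (5.68 TPM) and Mthfd1 (5.13 TPM) led with overlapping ranges, and Mthfd1 was above the next gene in all libraries. Shmt1 (1.54), Psph (1.51) and Aldh1l2 (1.42 TPM) followed, each overlapping with its neighbour. Mthfd2 (0.72), Aldh1l1 (0.68), Psat1 (0.56) and Phgdh (0.39 TPM) came next, also with overlap between neighbours, and Mthfd1l (0.14 TPM) was below all of them without overlap.

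In the knockout, Mthfd2 led at 34.0 TPM with no overlap with Phgdh at 20.4 TPM. Phgdh, Shmt2 (17.9 TPM) and Psat1 (13.98 TPM) overlapped with their neighbours, and Psat1 did not overlap with Mthfd1 (6.13 TPM). Mthfd1, Aldh1l2 (5.33), Shmt1 (4.77) and Psph (3.93 TPM) formed a second overlapping run. Mthfd1l (2.86 TPM) and Aldh1l1 (0.46 TPM) were each apart from the gene above. Mthfd2, sixth in the wildtype, was thus first, while Mthfd1, which stood next to the top in the wildtype, came after 4 others.

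**Figure D4:**
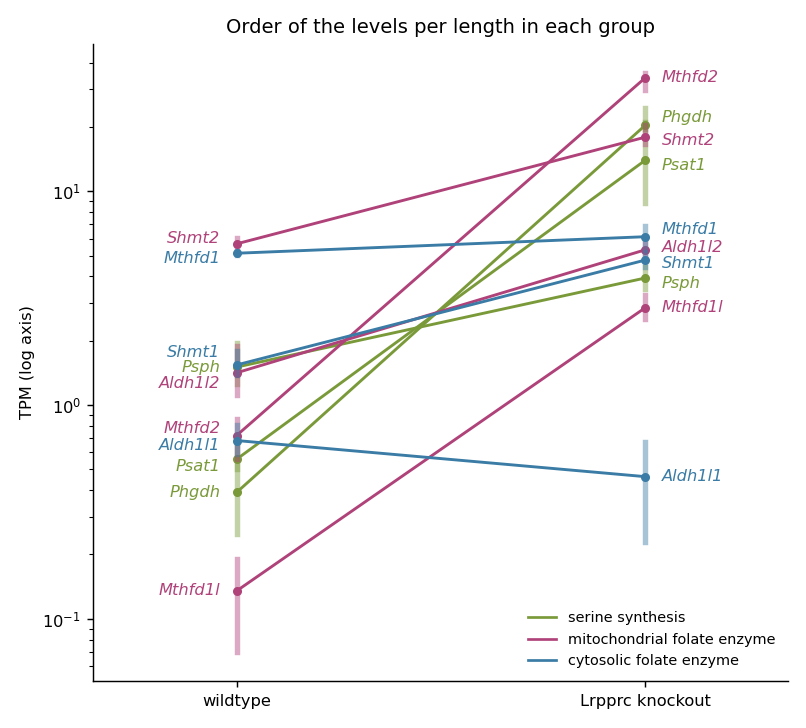
Mean TPM (log axis) of each gene in the wildtype and the knockout, joined by a line, with the range of the 4 libraries as a thick bar. Mthfd2, Phgdh, Psat1 and Mthfd1l have the steepest lines, those of Shmt1, Shmt2, Aldh1l2 and Psph are less steep, Mthfd1 is nearly level at 5.13 and 6.13 TPM, and Aldh1l1 slopes down with a wide range in the knockout.

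The 4 knockout hearts did not keep 1 order across the genes. Of the 8 genes called and at least 2-fold higher, 4 had their highest knockout value in replicate 1, 2 in replicate 3 and 2 in replicate 4, while 3 had their lowest in replicate 2, 3 in replicate 4 and 2 in replicate 1. The highest knockout value was 1.15 times the lowest for Phgdh, Shmt2 and Mthfd1l, 1.33 times for Mthfd2 and 2.89 times for Psat1. In the wildtype the same ratio was 2.20 for Phgdh and 2.77 for Mthfd1l, the genes with the fewest counts.

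Likeness was sought among the 9868 other protein-coding genes averaging 100 or more normalised counts. It was measured as the root mean square difference of log2 profiles over the 8 libraries, each gene set against its own wildtype mean. Such a profile contains the knockout over wildtype difference, so only genes with a like fold change can lie near each other. Nearness thus in part restates the contrast by which the enzymes were chosen. Whether near genes also share a pattern within the groups, or a regulator, was not tested. The gene nearest to Phgdh was Mthfd2, at 0.217, followed by Asns, the asparagine synthetase, at 0.479 and Dlg2 at 0.569. The log2 fold changes of Mthfd2, Asns and Dlg2 were 5.68, 6.11 and 5.23, beside 5.86 for Phgdh. For Mthfd2, Phgdh was followed by Dlg2 at 0.414 and Asns at 0.496. The gene nearest to Shmt2 was Lars, the cytosolic leucyl-tRNA synthetase, at 0.083, followed by Xpot, the tRNA exporter, at 0.083 and Enah at 0.109. Shmt2 was the second nearest gene to Shmt1, at 0.137, after Dennd4a at 0.134. Mthfd1l was nearest to Shisa3, at 0.296, then to Gm3776 at 0.378, and Pycr1, a proline synthesis enzyme of mitochondria, was the third at 0.431. Psat1, with its high value in knockout replicate 3, was nearest to Maoa, at 0.264. Psph was nearest to Ascc2 (0.153), Aldh1l2 to Dhx37 (0.155), Mthfd1 to Ddx10 (0.067) and Aldh1l1 to Art4 (0.187).

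Around these enzymes, 67 other genes of serine, glycine and folate metabolism were listed by function, of which 60 were tested. Of the 60, 17 were higher and 7 lower in the knockout (DESeq2, adjusted p under 0.05), beside 18.2% and 15.5% of all genes tested, and their median log2 fold change was 0.18 beside 0.01. The other 7 listed genes, Ftcd, Tdh, Dmgdh, Agxt, Agxt2, Bhmt and Sptlc3, were near the floor of 3 counts in the heart and were not tested. The scaling mattered for the counts: 37 were higher and 3 lower when totals left out mitochondrial rRNA, and 15 were lower under total-count scaling. Without knockout replicate 3, 17 were higher and 10 lower. The counts by group below are descriptions to be read beside the 18.2% and 15.5% of all genes, and no group was tested against another.

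Among the groups of the list, those around 3-phosphoglycerate and of serine and glycine transport had 3 of 5 and 6 of 11 genes higher. Of the 5 genes around 3-phosphoglycerate, the metabolite from which Phgdh starts, 3 rose: the mutase Pgam1 by 1.53 ± 0.108, the dehydrogenase Gapdh by 1.23 ± 0.0913 and the kinase Pgk1 by 1.07 ± 0.122 (log2 fold change ± standard error; DESeq2 adjusted p = 2.73e-43, 6.58e-39 and 4.41e-17). The muscle mutase Pgam2 and Bpgm were not called (-0.25 and -0.01). Gapdh went from 36976 to 41833 normalised counts in the wildtype to 88532 to 105629 in the knockout, with no overlap. Gapdh, Pgk1 and Pgam1 have processed pseudogenes, so part of their reads may have been assigned to copies, which was not tested. Of 11 transporters of serine and glycine, 6 rose and 1 fell.

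Slc6a9, a glycine transporter of the cell surface, had 20.5 to 63.0 normalised counts in the wildtype and 178 to 388 in the knockout, a log2 fold change of 3.13 ± 0.342 (SE; DESeq2 adjusted p = 2.60e-18). Slc1a4, a transporter of serine, alanine and cysteine, had 36.8 to 50.4 and 306 to 413, a log2 fold change of 3.05 ± 0.184 (SE; DESeq2 adjusted p = 3.59e-59). Both groups were apart for each gene. Slc38a1, a transporter of neutral amino acids, rose by 1.97 ± 0.126 and Sfxn1, which carries serine into mitochondria, by 1.07 ± 0.177 (log2, SE; DESeq2 adjusted p = 7.06e-53 and 2.00e-08). Beyond the rule for named genes, and chosen after their values were seen, Slc38a2 (1.01) and Slc1a5 (0.41) were the other transporters that rose, and Slc25a38 (-0.60), the glycine carrier of the mitochondrial membrane, was the one that fell (DESeq2 adjusted p = 4.16e-13, 0.0164 and 0.000932). The call of Slc1a5 was lost without knockout replicates 2 or 4, without wildtype replicates 2 or 3 (0.35 to 0.40) and under total-count scaling (0.12), and that of Slc25a38 when totals left out mitochondrial rRNA (-0.18).

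Of 12 tested genes of glycine cleavage and glycine or serine breakdown, 4 fell and 1 rose, beside 15.5% and 18.2% of all genes, and 2 of the 4 were not called when totals left out mitochondrial rRNA. Gcat, which splits an intermediate of threonine breakdown into glycine, fell from 148 to 193 normalised counts in the wildtype to 45.6 to 74.7 in the knockout, a log2 fold change of -1.62 ± 0.206 (SE; DESeq2 adjusted p = 9.13e-14). Of the glycine cleavage system, the subunit genes Amt (-1.26 ± 0.41) and Gcsh (-0.36 ± 0.104) fell (SE; DESeq2 adjusted p = 0.00864 and 0.00295), Dld (0.04) was not called, and Gldc had at most 13.9 normalised counts in any library. Those 2 were Gcsh (0.07) and Amt (-0.83), and Amt was also not called without knockout replicate 4 (-0.98) or wildtype replicate 1 (-1.10). Srr, the serine racemase, rose by 0.76 ± 0.160 (log2, SE; DESeq2 adjusted p = 1.66e-05). Sds, a serine dehydratase named after its values were seen, had 14.6 to 17.6 normalised counts in the wildtype and at most 1.62 in the knockout (DESeq2 adjusted p = 8.56e-05).

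Of 12 tested genes in pathways that use the carbon units, 2 rose and 1 fell, no larger a share than the 18.2% and 15.5% of all genes. Several of the 12, such as Ppat, Pfas, Paics and Adsl, act at other steps of these pathways and take no carbon from folate. The called genes, Atic, Gart and Mtr, are among those that take it directly. Atic, which inserts the last formyl carbon into purines, rose from 385 to 411 normalised counts in the wildtype to 708 to 911 in the knockout, a log2 fold change of 0.998 ± 0.113 (SE; DESeq2 adjusted p = 5.42e-17). Gart, which inserts the earlier one, rose by 0.28 ± 0.0923 (log2, SE; adjusted p = 0.00948), but the call was lost without knockout replicate 4 and without wildtype replicates 2, 3 or 4 (0.26 to 0.28) and under total-count scaling (-0.02). Mtr, methionine synthase, which takes its methyl group from folate, fell from 1177 to 1218 normalised counts in the wildtype to 646 to 868 in the knockout, a log2 fold change of -0.69 ± 0.111 (SE; DESeq2 adjusted p = 8.19e-09). Tyms, thymidylate synthase, was not called (-0.18).

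Of 7 genes of folate uptake and transport, 3 rose. They were the exporters Abcc4 (1.27 ± 0.134) and Abcc1 (0.29 ± 0.110) and the receptor Folr1 (SE; DESeq2 adjusted p = 1.24e-19, 0.0303 and 0.00618). Folr1, named after its values were seen, had 0 to 2.41 normalised counts in the wildtype and 1.99 to 17.6 in the knockout, with overlap, and its call was not made without knockout replicate 2, where it had no adjusted p, nor in the edgeR fit or with the filter of 10 counts in 4 libraries, which did not test it. The call of Abcc1 was lost without knockout replicates 2 or 4 and without wildtype replicates 1, 3 or 4 (0.24 to 0.29) and under total-count scaling (-0.01). The mitochondrial folate carrier Slc25a32 (0.29) and the reduced folate carrier Slc19a1 (0.23) were not called.

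Of 4 tested genes that use serine for lipids, Sptlc2, a subunit of the enzyme that starts sphingolipid synthesis, rose by 0.83 ± 0.238, and Ptdss1, a phosphatidylserine synthase, had a log2 fold change of -0.28 ± 0.0905 (SE; DESeq2 adjusted p = 0.00225 and 0.00799). The call of Ptdss1 was lost without knockout replicate 2 or wildtype replicate 3 (-0.26 and -0.25), and the value was 0.14 when totals left out mitochondrial rRNA. Sptlc2 was not called under total-count scaling (0.57).

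**Figure D5:**
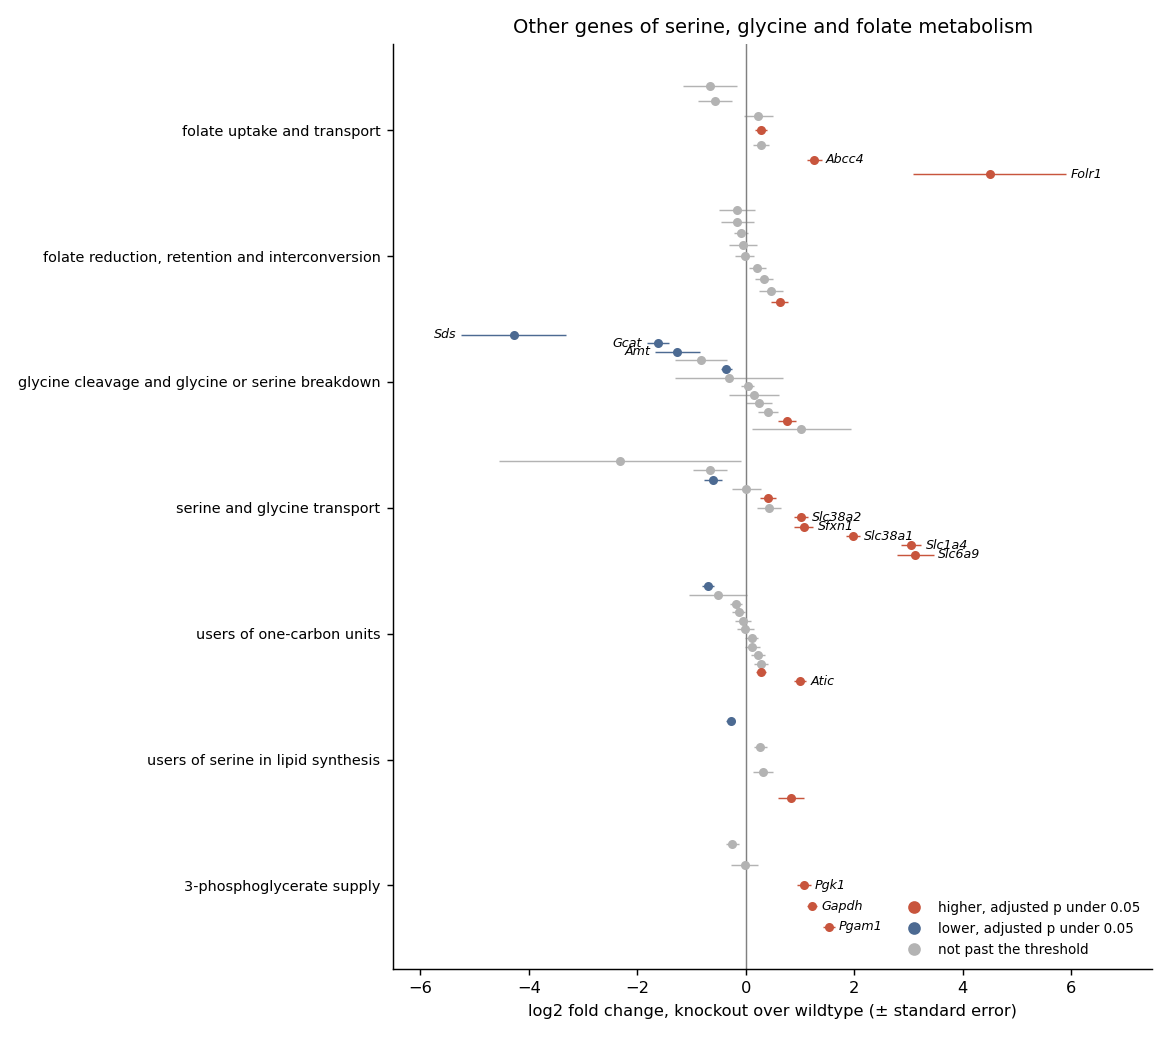
The log2 fold change, knockout over wildtype, with its standard error for the 60 tested genes of the list, by group and coloured by call; names are given for called genes beyond about 1 on the log2 scale. Of the 60 genes, 17 are coloured as higher, 7 as lower and 36 as not past the threshold.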

How the data were processed

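RNA of 8 whole hearts was measured, and the titles put 4 libraries in each group. Expected counts, TPM and lengths (other values, in bases) were made by the authors with RSEM 1.2.31 and Bowtie2, from paired reads counted by strand, against GENCODE transcripts to which mitochondrial sequences had been added. Reads that match several genes are divided between them, so a deposited expected count can be a fraction, and the deposited TPM sum to a constant in each library. The authors' comparison table (mean count, log2 fold change, p-values) and 8 columns of normalised counts whose names match no label were not used.

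After rounding of the expected counts, 1 model with genotype as its term was fitted by DESeq2 1.42.0 (R 4.3.3) to the 8 libraries, with size factors by median of ratios and effective lengths as an offset (lengths of 0 set to 1). Normalised counts are counts scaled in this way. Fold changes are unshrunken, and adjusted p-values (Benjamini-Hochberg, over all genes) were read at a threshold of 0.05. Ratios used TPM without a pseudocount, and likeness used a pseudocount of 1. GENCODE gave symbols for 50339 of 50563 Ensembl identifiers. Promoters came from RefSeq on GRCm38.p6. Near-identical copies were sought with blastn 2.17.0, at 95% identity over 200 bases.

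The genes and lists were chosen with earlier results of these data known. Named genes were the 10 enzymes, their 3 nearest genes by profile (not all printed), and in each list group up to 4 called genes with the largest change and a mean of at least 10 normalised counts. The group of folate reduction, retention and interconversion is not reported here gene by gene. Alternatives comprised edgeR 4.0.16 with TMM, a fit without length offset, size factors from nuclear genes, a filter of 10 counts in 4 libraries, scaling by total counts (all, or without mitochondrial rRNA), a replicate block and leaving out each library. The fits were tested on simulated data, where DESeq2 made false calls at a rate above its threshold and above that of edgeR, so single calls near the threshold are less certain than their adjusted p. Replicates differed by more than sampling noise in every pair (chi-square per degree of freedom of 4.65 to 52.9), so each library counted as 1 replicate. Depth was 35218541 to 47743376 counts, and floors of 3 counts cover counting error only.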

Additional observations from a re-analysis of the deposited data

Results flagged for a closer look

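Psat1 in the knockout group was set apart by a single library. Knockout replicate 3 had 2096 normalised counts and the other 3 had 726 to 939, a gap that took 0.845 of the range of the group, over Dixon's limit at the 95% level for 4 values. Among the 66 groups of 4 values examined this was the only one past that limit, and chance alone would give about 3.3.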

How the results depend on the processing

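The 9 calls of higher level among the 10 enzymes were made under every alternative except total-count scaling, where Mthfd1 (0.10) was lost, and without the length offset 1 of the 10, Aldh1l1, was called lower (-0.76). Of the alternative values of the 10 enzymes, 148 kept direction and side of the threshold, 1 gained and 1 lost a call. Of those of the other called genes of the list, 327 kept both, 26 lost the call and 4 changed sign: Abcc1 (-0.00725) and Gart (-0.0153) under total-count scaling, Gcsh (0.0678) and Ptdss1 (0.14) without mitochondrial rRNA in the totals. Folr1 had no value to compare in 3 further alternatives (edgeR, the filter on low counts and without knockout replicate 2). Over all genes, 3628 were higher and 3100 lower, against 1924 and 5912 under total-count scaling and 7950 and 1111 without mitochondrial rRNA. The listed genes gave 37 higher and 3 lower without mitochondrial rRNA and 15 lower under total-count scaling. Leaving out each library gave 3025 to 3722 higher and 2504 to 3300 lower genes, 14 to 17 higher and 6 to 10 lower listed genes, and differences in the log2 ratio of -0.0643 to 0.0753 for Shmt2/Shmt1, 5.21 to 5.43 for Mthfd2/Mthfd1, 3.94 to 4.44 for Mthfd1l/Mthfd1 and 2.26 to 2.86 for Aldh1l2/Aldh1l1; Shmt2/Shmt1 changed sign without wildtype replicate 2 (-0.0308) and knockout replicate 4 (-0.0643). Without length correction Shmt2/Shmt1 was 0.22. With 1 added to each TPM it was 0.32, Mthfd2/Mthfd1 was 4.13, Mthfd1l/Mthfd1 was 1.55 and Aldh1l2/Aldh1l1 was 1.61, since low wildtype levels are raised. The deviations of samples with the same replicate number had correlations of -0.07 to 0.07 over 15754 genes. The main fit did not use the numbers as pairs, though such values cannot exclude a weak pairing. For replicate 4 the correlation was 0.07, against at most 0.03 with another number. With the replicate block 2929 genes were higher and 2596 lower, 9 of the 10 enzymes were higher, and 14 listed genes were higher and 6 lower, without Abcc1, Gart, Slc1a5 (0.40) and Ptdss1. The cause of these changes was not tested, apart from the shift of the median that the scalings bring.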
